A study of Mus musculus with 2 samples.

Results

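The nuclear genes that encode subunits of the oxidative phosphorylation (OXPHOS) machinery were described in single-nucleus RNA sequencing of the inguinal fat pad (iWAT, inguinal white adipose tissue) of mice, which lies under the skin. The members were chosen by gene symbol alone, as the rows named for subunits of complexes I to V (Nduf, Sdh, Uqcr, Cox4 to Cox8 and Atp5 genes), without the muscle and brown fat isoforms Cox8b and Cox7a1. This gave 82 rows of the 31053 in the files, of which 37 belong to complex I, 4 to complex II, 8 to complex III, 16 to complex IV and 17 to complex V. They carry 81 symbols, since 2 rows are named Atp5o. Cox7b2 and Cox8c had 0 UMIs in every kept nucleus.

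The labels give a library of genotype Lexis WT and another of genotype Lexis KO. The study's methods state that each was from iWAT pooled over 3 male mice fed a Western diet, taken without the lymph node. Lexis is a long noncoding RNA. Per the study's methods, a floxed Lexis allele was deleted with Cre driven by the Adipoq promoter, which is active in adipocytes, and the controls were littermates on the same C57BL/6 background. Age was not given for these mice. In both libraries the file names state the other genotype than the labels do, and Lexis itself was not analysed here. Each library is therefore named by its label (the library labelled WT, that labelled KO), and directions rest on those labels. With 1 pooled library per genotype no test between genotypes was possible, and all intervals are 95% intervals that cover counting error only.

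The filters left 3503 nuclei labelled WT (median 1195 UMIs, molecules counted by their unique molecular identifier) and 2852 labelled KO (median 3879 UMIs). The libraries shared 12 barcodes, 10 of them among kept nuclei. Nuclei were grouped by markers into adipocytes (418 in the library labelled WT and 894 in that labelled KO), adipogenic stem and precursor cells with fibroblasts (ASPC, 297 and 787), myeloid cells (430 and 845), lymphocytes (2105 and 108), endothelial cells (93 and 122) and mural cells (10 and 44), with 52 myocytes in the library labelled KO and 150 unnamed nuclei in the library labelled WT. The adipocyte, ASPC, myeloid and lymphocyte nuclei of the 2 libraries lay mostly in different clusters. Lymphocytes labelled WT were mainly 1232 nuclei of a B cell cluster and 779 of a T cell cluster. Those labelled KO were mainly 60 of a cluster with T and NK cell markers and 31 of another B cell cluster. The lymphocyte ratios between the libraries therefore compare different mixtures of cells. Lymphocytes made up 60.1% of the kept nuclei labelled WT and 3.79% of those labelled KO, and whether lymph node tissue remained was not tested. The libraries also stood apart in other measures. The 82 cytosolic ribosomal protein genes summed to 10381 CPM (counts scaled to a total of 1000000 UMIs per class) in adipocytes labelled WT and 4300 CPM in adipocytes labelled KO, and 146 genes had 0 UMIs in the library labelled WT and at least 100 in the other, against 3 the other way round.

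OXPHOS couples the oxidation of NADH and succinate to ATP synthesis. Complexes I (NADH dehydrogenase), III (cytochrome c reductase) and IV (cytochrome c oxidase) pump protons across the inner mitochondrial membrane, complex II (succinate dehydrogenase) feeds electrons into the same chain, and complex V (ATP synthase) uses the proton gradient. Most subunits are encoded in the nucleus and the rest in mitochondrial DNA, so that both genomes supply the same complexes. White adipocytes hold few mitochondria beside brown and beige adipocytes, in which uncoupling of the gradient produces heat.

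Promoters of OXPHOS genes are known for sites of the factors NRF1, GABPA (an ETS factor), YY1 and the estrogen-related receptors (ERR). RefSeq windows of 300 bases (250 before and 50 after the start, GRCm38.p6) were matched for 66 of the 82 rows. The NRF1 letters GCGCANGCG, searched on both strands, were in 20 of the 66 member genes (30.3%) and in 6.98% of the 26959 other genes with a window. The ETS letters CCGGAAG were in 16 (24.2%, against 9.89%), the YY1 letters AAGATGGC in 10 (15.2%, against 3.16%), the ERR letters AAGGTCA in 8 (12.1%, against 5.36%) and the SP1 letters GGGCGG in 28 (42.4%, against 38.2%). A match of NRF1, ETS or YY1 letters was in 38 of the 66 (57.6%, against 17.7%). For the YY1 letters, 9 of the 10 member genes held a match that reached past the start or lay in the 50 bases after it. Of the other genes 1.42% held such a match. Upstream of the start 1 member gene held a match. No window held overlapping ETS and YY1 letters. The other genes include many that are not protein coding, and a match is a description of the letters, not of binding.

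The 250 bases before the start are shown for 1 member of each complex with many UMIs (Ndufs4, Sdha, Uqcrh, Cox7c and Atp5l), for Ndufb3, the member highest in adipocytes over the other classes, and for Atp5g2, the lowest ratio between the libraries in adipocytes among members with at least 50 UMIs. Capitals mark NRF1, ETS, YY1 or ERR letters. Sdha held 3 NRF1 matches, beginning 98, 55 and 10 bases before the start. Uqcrh held 1 ETS match at 10 bases. Atp5l held an NRF1 match at 241, an ETS match at 212 and an ERR match at 13 bases, and Atp5g2 held NRF1 letters on both strands at 42 and 41 bases. The windows of Ndufs4, Cox7c and Ndufb3 held none of these letters upstream of the start.
Ndufs4, chr13:114388095-114388344, minus strand: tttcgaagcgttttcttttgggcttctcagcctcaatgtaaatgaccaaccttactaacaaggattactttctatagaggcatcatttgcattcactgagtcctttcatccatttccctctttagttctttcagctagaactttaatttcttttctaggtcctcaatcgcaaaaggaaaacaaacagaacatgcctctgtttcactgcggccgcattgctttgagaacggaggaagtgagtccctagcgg
Sdha, chr13:74350241-74350490, minus strand: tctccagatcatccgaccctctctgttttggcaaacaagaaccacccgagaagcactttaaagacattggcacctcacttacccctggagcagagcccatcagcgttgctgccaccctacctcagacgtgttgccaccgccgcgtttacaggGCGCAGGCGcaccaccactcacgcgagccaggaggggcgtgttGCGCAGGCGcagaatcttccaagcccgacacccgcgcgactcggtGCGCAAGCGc
Uqcrh, chr4:116075071-116075320, minus strand: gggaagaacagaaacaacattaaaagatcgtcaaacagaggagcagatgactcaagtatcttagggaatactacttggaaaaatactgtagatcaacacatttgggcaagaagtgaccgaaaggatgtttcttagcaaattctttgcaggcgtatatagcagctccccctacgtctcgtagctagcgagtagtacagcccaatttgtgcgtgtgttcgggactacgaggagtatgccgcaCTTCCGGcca
Cox7c, chr13:86046796-86047045, minus strand: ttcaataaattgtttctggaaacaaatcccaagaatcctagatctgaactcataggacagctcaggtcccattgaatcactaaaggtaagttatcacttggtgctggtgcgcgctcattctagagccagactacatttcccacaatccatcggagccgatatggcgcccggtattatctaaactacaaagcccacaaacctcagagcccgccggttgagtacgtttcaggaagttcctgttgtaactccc
Atp5l, chr9:44920743-44920992, minus strand: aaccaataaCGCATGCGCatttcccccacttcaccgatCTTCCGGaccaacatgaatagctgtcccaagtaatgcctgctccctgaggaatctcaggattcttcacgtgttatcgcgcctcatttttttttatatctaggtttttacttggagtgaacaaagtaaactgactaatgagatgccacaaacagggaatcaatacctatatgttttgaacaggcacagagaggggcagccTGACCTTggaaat
Ndufb3, chr1:58586147-58586396, plus strand: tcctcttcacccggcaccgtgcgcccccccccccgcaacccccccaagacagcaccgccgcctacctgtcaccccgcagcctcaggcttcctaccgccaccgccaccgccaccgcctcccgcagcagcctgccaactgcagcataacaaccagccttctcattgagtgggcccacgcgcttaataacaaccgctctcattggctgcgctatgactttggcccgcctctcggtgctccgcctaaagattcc
Atp5g2, chr15:102671048-102671297, minus strand: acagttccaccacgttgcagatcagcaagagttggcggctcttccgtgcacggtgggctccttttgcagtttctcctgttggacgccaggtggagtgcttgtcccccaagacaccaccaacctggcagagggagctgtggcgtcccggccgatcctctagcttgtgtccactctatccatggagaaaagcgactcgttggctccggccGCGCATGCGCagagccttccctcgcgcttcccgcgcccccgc

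The first question was how much OXPHOS subunit RNA the nuclei of each cell class held. By CPM, adipocyte nuclei had the lowest summed level in both libraries. In the library labelled WT this did not hold with TMM scaling (edgeR's trimmed mean of M-values), which put them above myeloid cells. Against ASPC it left no clear difference, at 0.012 on the log2 scale (-0.045 to 0.070). With mitochondrial genes and Malat1 left out of the totals, adipocytes labelled WT were not clearly below myeloid cells (-0.038, -0.091 to 0.015). They stayed below ASPC there (-0.069, -0.127 to -0.012). The adipocyte level was 4142 CPM (4052 to 4233) in the library labelled WT and 3760 CPM (3719 to 3801) in that labelled KO. In the library labelled WT the order continued with ASPC at 4701 CPM, myeloid at 4915, lymphocytes at 6590, mural at 7561 and endothelial at 7981 CPM. The intervals of ASPC and myeloid nuclei overlapped, and so did that of the 10 mural nuclei with both of its neighbours. In the library labelled KO the order was ASPC at 5187 CPM, mural at 5479, myocytes at 5508, myeloid at 5927, endothelial at 6689 and lymphocytes at 7572 CPM, with overlapping intervals between mural nuclei and ASPC, myocytes and myeloid cells, and between ASPC and myocytes. Endothelial and lymphocyte nuclei thus changed places between the libraries, and adipocytes were lowest in each.

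**Figure D1:**
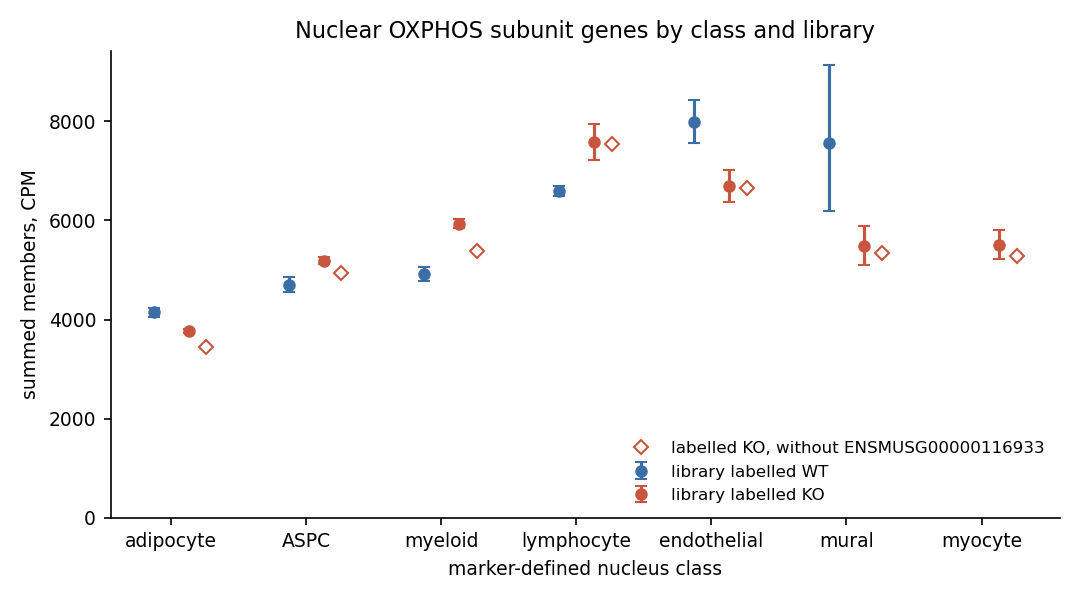
Summed level of the 82 members in CPM of each class, by class and library, with exact Poisson 95% intervals. Open diamonds leave out the Atp5o row ENSMUSG00000116933. Adipocyte nuclei were lowest by CPM in both libraries, at 4142 and 3760 CPM, though not with TMM scaling in the library labelled WT.

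Adipocyte nuclei held 0.881 times the ASPC level (0.847 to 0.917) and 0.843 times the myeloid level (0.812 to 0.874) in the library labelled WT. With TMM scaling these became 0.012 (-0.045 to 0.070, no clear difference) and 0.18 (0.128 to 0.235, turned) on the log2 scale. In the library labelled KO the ratios were 0.725 to ASPC (0.712 to 0.738) and 0.634 to myeloid nuclei (0.623 to 0.646), and adipocytes stayed lower under every alternative tried. Complex II had the CPM ratio of adipocytes over ASPC nearest 1, at 0.940 times (0.746 to 1.19) in the library labelled WT and 0.943 times (0.857 to 1.04) in that labelled KO, both with intervals that held 1. Complex III was at 0.808 (0.710 to 0.922) and 0.618 (0.581 to 0.658), and complex IV at 0.881 (0.812 to 0.956) and 0.632 (0.608 to 0.657). The median UMIs per nucleus were 3652 in adipocytes and 1719 in ASPC of the library labelled WT, and 7849 and 3499 in the other, and an adipocyte nucleus held on average 19.4 member UMIs against 11.8 in an ASPC nucleus in the library labelled WT, and 36.3 against 21.9 in the library labelled KO.

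Gene by gene, of 75 members with at least 50 UMIs over adipocytes, ASPC, myeloid cells and lymphocytes of the library labelled WT, 44 had their lowest CPM of the 4 classes in adipocytes. Over all 10633 genes with that many UMIs the share was 40.0%. In the library labelled KO 62 of 76 members were lowest in adipocytes, with 37.0% of all 13134 genes. For 41 members adipocytes were lowest in both. Of 79 ribosomal protein genes, 76 were lowest in adipocytes in the library labelled WT and 79 in that labelled KO. Lymphocytes were the highest class for 64 members in the library labelled WT (44.1% of all genes) and 59 in that labelled KO (34.0%), and for 77 and 76 of 79 ribosomal protein genes. Adipocytes were the highest class for 4 members in the library labelled WT (Ndufb3, Ndufa10, Cox7c and Atp5s; 18.1% of all genes) and for 3 in that labelled KO (Ndufb3, Ndufs3 and Atp5s; 22.4% of all genes).

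Ndufb3, an accessory subunit of complex I (chr1:58586397-58595964, GRCm38), was the member that stood out in adipocytes. Its level in the library labelled WT was 199 CPM in adipocytes, 60.5 in ASPC, 83.8 in myeloid cells, 81.5 in lymphocytes and 133 CPM in endothelial cells. With the label KO it was 140 CPM in adipocytes and 69.6, 62.8, 116 and 69.4 CPM in the same other classes. Adipocytes were thus highest in each library, at 2.48 times (2.14 to 2.86) the level of the remaining nuclei labelled WT and 2.06 times (1.86 to 2.30) in that labelled KO. Atp5s, a gene named with ATP synthase whose product is the coupling factor B, followed at 1.68 times (1.11 to 2.53; 43 adipocyte UMIs) and 1.97 times (1.54 to 2.55; 220 UMIs). Ndufa10, an accessory subunit of complex I, was at 1.67 times (1.37 to 2.02) and 1.27 times (1.09 to 1.48).

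The log2 ratios of adipocytes over ASPC were alike in the libraries: over the 66 members with at least 20 UMIs in both classes of both libraries, Pearson's r was 0.739, 47 members were lower in adipocytes in both libraries and 6 were higher in both. The points share their libraries and depth, and r is given as a description. The interval lay below 1 in both libraries for 22 of the 66 and above 1 in both for 4, which were Ndufb3, Ndufs3, Ndufa10 and Atp5a1 (the alpha subunit of ATP synthase). Against myeloid cells r was 0.655 over 67 members, with 46 lower in both libraries and 5 higher.

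**Figure D2:**
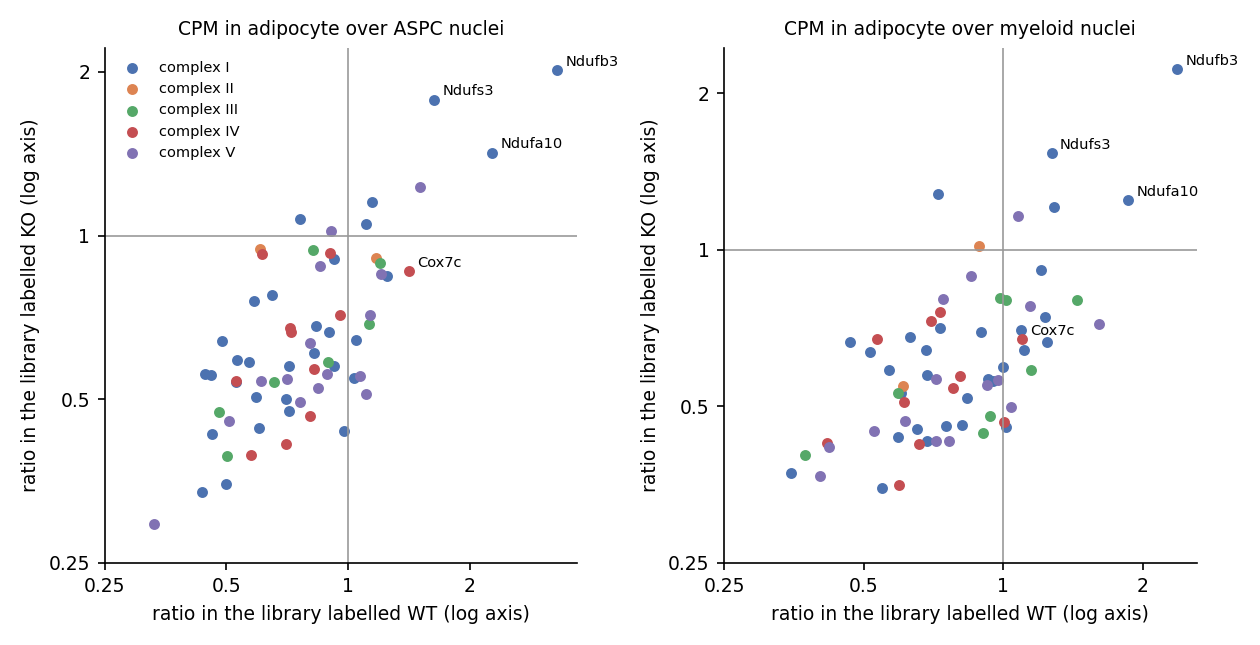
Ratio of CPM in adipocyte nuclei over ASPC (left) and myeloid nuclei (right) for each member with at least 20 UMIs in both classes of both libraries, in the library labelled WT (horizontal, log axis) and that labelled KO (vertical, log axis), coloured by complex. Most members lie below 1 in both libraries, and Ndufb3 lies highest in both panels.

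The second comparison was between the libraries within each class, given as the ratio of CPM in the library labelled KO over that labelled WT. The row ENSMUSG00000116933, one of those named Atp5o, had to be set apart first. It had 0 UMIs in the library labelled WT and 5138 in that labelled KO, of which 2698 were in adipocytes (312 CPM, 301 to 324), 822 in ASPC, 1523 in myeloid cells and 9 in lymphocytes. Against the limit of 3 counts that 0 UMIs allow, it was at least 203-fold higher in adipocytes of the library labelled KO. It made up 8.30% of member UMIs and 27.9% of complex V UMIs there, and is 1 of 9 genes at 0 in the library labelled WT with at least 1000 UMIs in the other. The row ENSMUSG00000022956, also named Atp5o, had 38.9 and 24.4 CPM in adipocytes of the libraries labelled WT and KO. Sums are therefore given with and without the first row, and the cause of its pattern was not tested.

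The summed members were at 0.908 times (0.886 to 0.930) in adipocytes labelled KO over adipocytes labelled WT, and at 0.832 times (0.812 to 0.853) without that row, but the direction turned with TMM scaling (0.16 on the log2 scale) and after correction for intronic length (0.27). In ASPC the ratio was 1.10 (1.06 to 1.14), in myeloid cells 1.21 (1.17 to 1.25), in lymphocytes 1.15 (1.09 to 1.21) and in endothelial cells 0.838 (0.779 to 0.902). Without the Atp5o row these became 1.05, 1.09, 1.14 and 0.833. Each of these 4 directions turned under at least 1 alternative scaling or filter: ASPC and myeloid cells when mitochondrial genes and Malat1 were left out of the totals or nuclei were limited to 1% mitochondrial UMIs, lymphocytes with TMM scaling, and endothelial cells when thinned to 1000 UMIs per nucleus or corrected for intronic length. The ribosomal protein genes were lower in the library labelled KO in every one of these classes, at 0.414 times in adipocytes, 0.615 in ASPC, 0.589 in myeloid cells, 0.573 in lymphocytes and 0.436 in endothelial cells, in each class a lower ratio than that of the summed members.

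By complex, adipocytes of the libraries labelled WT and KO held 1547 and 1393 CPM of complex I (ratio 0.901, 0.865 to 0.938), 133 and 168 CPM of complex II (1.27, 1.11 to 1.46), 375 and 306 CPM of complex III (0.816, 0.752 to 0.887) and 1003 and 775 CPM of complex IV (0.773, 0.735 to 0.813). Complex V was at 1085 and 1117 CPM (1.03, 0.982 to 1.08), and at 805 CPM in the library labelled KO without the Atp5o row (0.742, 0.707 to 0.779). Complex II was thus the only complex higher in adipocytes of the library labelled KO when that row was left out, although complexes I and III also turned higher with TMM scaling, at 0.14 and 0.0024 on the log2 scale. With mitochondrial genes and Malat1 left out of the totals, complex II showed no clear difference (0.093, -0.099 to 0.289). By CPM its ratio was also above 1 in ASPC (1.27, 1.03 to 1.57) and myeloid cells (1.30, 1.08 to 1.58). In lymphocytes, endothelial and mural cells its interval held 1. The 13 subunits encoded in mitochondrial DNA, the partners of these genes in complexes I, III, IV and V, summed to 9050 and 7277 CPM in adipocytes (0.804, 0.791 to 0.818), 17689 and 18507 in ASPC (1.05, 1.03 to 1.07), 17818 and 19800 in myeloid cells (1.11, 1.09 to 1.13) and 18237 and 25045 in lymphocytes (1.37, 1.34 to 1.41). In these 4 classes the CPM ratios of the nuclear and the mitochondrial sums therefore lay on the same side of 1. With TMM scaling the nuclear sum turned in adipocytes (0.16 on the log2 scale) and in lymphocytes (-0.019, -0.091 to 0.052). Mitochondrial sums are not given under that scaling, so whether the likeness holds beyond CPM was not tested. The filter on mitochondrial UMIs also capped their share in each kept nucleus. In endothelial cells the mitochondrial sum was at 1.14 (1.09 to 1.19) and in mural nuclei, with 10 nuclei labelled WT, at 1.81 (1.52 to 2.18), while the nuclear sums were at 0.838 and 0.725 (mural, 0.591 to 0.896), on the other side of 1.

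Of the 82 members, 76 had at least 50 UMIs in adipocytes of both libraries together. A ratio of 0.5 or less was found for 3 of them, with 17.6% of all 11351 genes tested at or below it, and a ratio of 2 or more for 5, with 25.9% of all genes. Both shares of members, 3.95% and 6.58%, were under the background. Their median log2 ratio was -0.34, against -0.0067 over all genes, and the difference of -0.33 is the same under any scaling of whole libraries. It turned to 0.32 after correction for intronic length and to 0.22 when all genes with at least 1 UMI were counted, which put the median of all genes at -0.56. The interval lay below 1 for 34 members (44.7%, against 35.1% of all genes), above 1 for 11 (14.5%, against 36.3%) and held 1 for 31 (40.8%, against 28.5%).

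**Figure D3:**
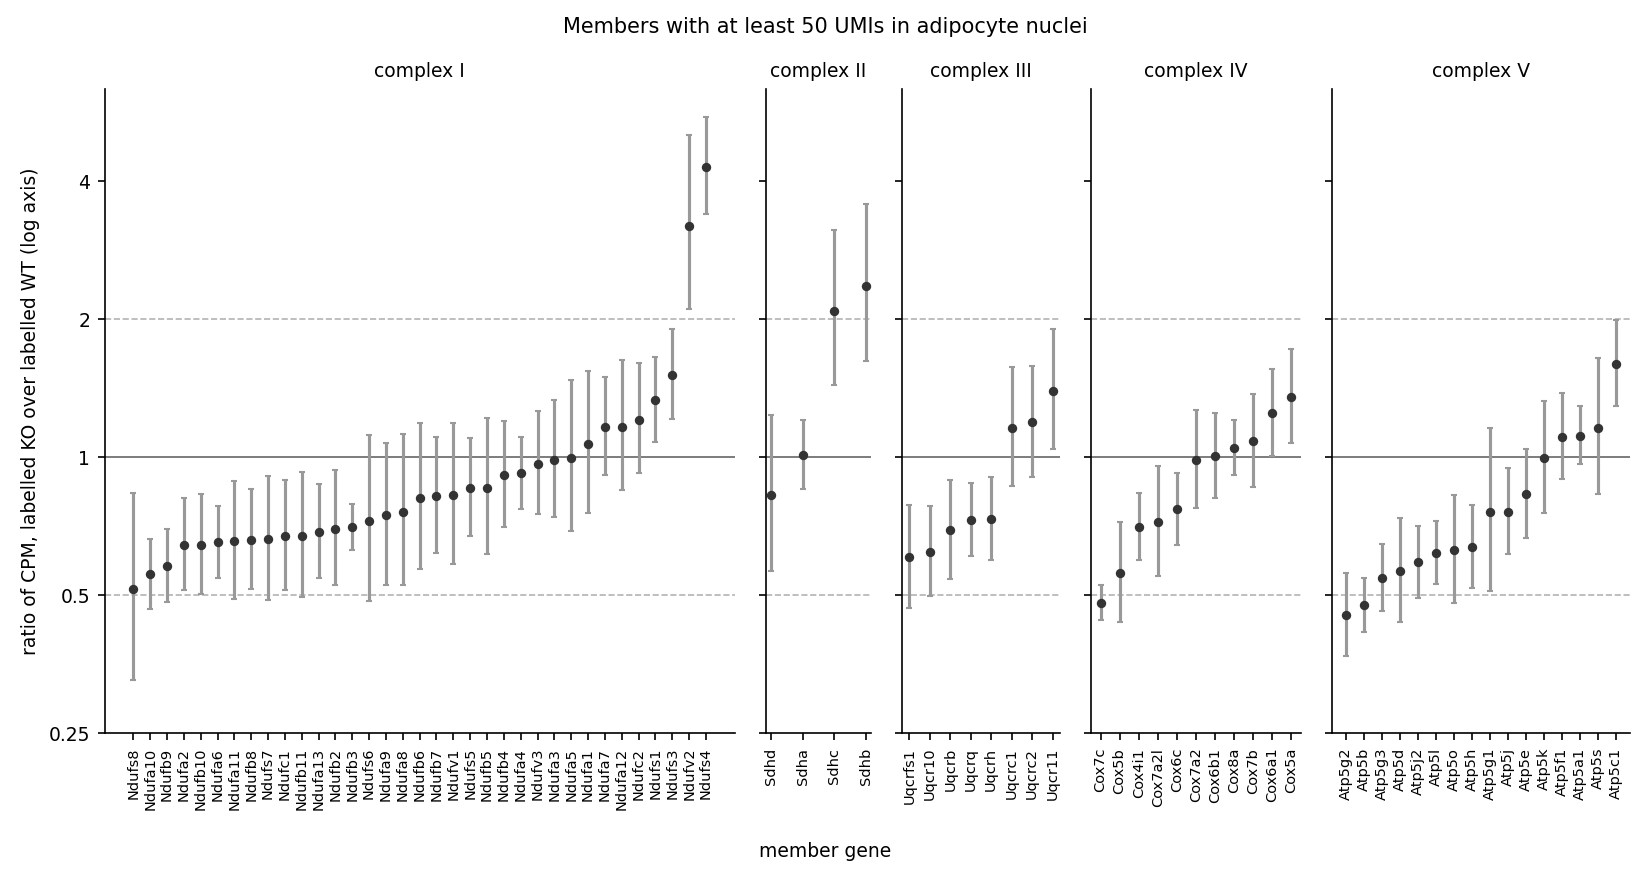
Ratio of CPM in adipocyte nuclei, library labelled KO over labelled WT (log axis), for each member with at least 50 UMIs and at least 1 UMI in the library labelled WT, except 1 that is not reported here, sorted within its complex, with exact conditional 95% intervals. Dashed lines mark ratios of 0.5 and 2. Ndufs4 at 4.29 and Ndufv2 at 3.19 lie highest, and Atp5g2 at 0.454 lies lowest.

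In complex I, Ndufs4, an accessory subunit of the matrix arm (chr13:114287795-114388094), was at 36.9 CPM in adipocytes labelled WT and 158 CPM in those labelled KO, 4.29 times (3.39 to 5.52). It was higher in the library labelled KO in the other classes too, by 3.05 times in ASPC, 2.42 in myeloid cells and 2.68 in lymphocytes. Ndufv2, a core subunit of the NADH module with an iron-sulfur cluster, was at 12.3 and 39.2 CPM, 3.19 times (2.11 to 5.05). Ndufs8, a core iron-sulfur subunit, was at 14.3 and 7.41 CPM, 0.517 times (0.326 to 0.837), with -0.95 on the log2 scale moving to -0.048 after correction for intronic length and to -2.12 when thinned to 1000 UMIs per nucleus. Ndufa4, long listed with complex I and since placed with complex IV, was at 78.3 and 72.3 CPM, and its interval of 0.772 to 1.11 held 1.

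In complex II the iron-sulfur subunit Sdhb was at 15.4 and 36.3 CPM, 2.37 times (1.62 to 3.56), and the membrane anchor Sdhc at 15.9 and 33.1 CPM, 2.08 times (1.44 to 3.13). The flavoprotein Sdha, which holds the succinate site, was at 83.5 and 84.2 CPM with an interval of 0.851 to 1.20. With totals without mitochondrial genes and Malat1 both fell under a ratio of 2, at 0.99 (Sdhb) and 0.81 (Sdhc) on the log2 scale. Sdhb was also 2.69 times as high in ASPC and 3.57 times in myeloid cells. In complex III, Uqcrq was at 80.4 and 58.8 CPM (0.731, 0.610 to 0.880) and the hinge protein Uqcrh at 62.5 and 45.7 CPM (0.732, 0.596 to 0.904). No complex III member passed either fold in adipocytes.

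Complex IV was led in UMIs by Cox7c and Cox8a, both small accessory subunits of the oxidase. Cox7c was at 367 CPM in adipocytes labelled WT and 177 CPM in those labelled KO, 0.482 times (0.440 to 0.527), with smaller differences in ASPC (259 and 206 CPM) and myeloid cells (335 and 262 CPM). Cox8a was at 133 and 140 CPM in adipocytes, and its interval of 0.917 to 1.20 held 1. In complex V the c-ring subunit Atp5g2 was at 72.2 and 32.7 CPM, 0.454 times (0.369 to 0.559), and the catalytic beta subunit Atp5b at 165 and 78.7 CPM, 0.476 times (0.416 to 0.545). Atp5a1, the alpha subunit, was at 116 and 129 CPM with an interval of 0.966 to 1.29. The alpha and beta subunits, which alternate in the same ring, thus had ratios of 1.11 and 0.476, with intervals that did not overlap. All 3 members at or below 0.5 came to lie above it with TMM scaling, at -0.76 on the log2 scale for Cox7c, -0.78 for Atp5b and -0.85 for Atp5g2. After correction for intronic length Cox7c was at -0.15, Atp5b at -0.17 and Atp5g2 at -0.54, and when thinned to 1000 UMIs per nucleus they were at -0.87, -0.86 and -0.56.

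In ASPC 0 of 76 members were at or below 0.5, with 8.76% of all genes, and 6 were at or above 2, with 25.1%. These were Ndufs4, Ndufv2, Ndufv1, Sdhb, Atp5s and the Atp5o row. In myeloid cells 0 of 75 were at or below 0.5, with 12.5% of all genes, and 4 (Ndufs4, Ndufv2, Sdhb and the Atp5o row) at or above 2, with 24.9%. In lymphocytes 2 of 74 were at or below 0.5, with 20.3% of all genes, and 2 (Ndufs4 and Uqcrc2) at or above 2, with 16.1%. The lymphocyte pair below 0.5 was Uqcrfs1, the Rieske iron-sulfur protein of complex III, with 120 UMIs labelled WT and 1 UMI labelled KO, and Ndufv1, with 58 and 2 UMIs. Ndufs4 was therefore past 2 in all 4 classes. The members' median log2 ratio, less that of all genes, was -0.13 in ASPC, 0.075 in myeloid cells and 0.36 in lymphocytes, so adipocytes had the lowest of the 4.

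The libraries differed along a feature that the members share. Members are short genes: their median intronic length was 6006 bases (81 of 82 matched in the older NCBIM37 annotation, used for lengths only) against 22069 over the other genes tested in adipocytes. Over those other genes the median log2 ratio in adipocytes climbed with intronic length, from -0.91 at 3000 bases or fewer (1217 genes) to -0.60, -0.18, 0.39 and 1.45 over 100000 bases (1422 genes). The members of up to 30000 bases followed the same order, at -0.57 for the 20 shortest, -0.42 for 34 of over 3000 to 10000 bases and 0.22 for 18 of over 10000 to 30000 bases. In each of these 3 ranges the member median was above that of the other genes, and the same held in ASPC, myeloid cells and lymphocytes. In lymphocytes the member medians were 0.087, 0.25 and 0.30, against -0.78, -0.63 and -0.30. The few longer members did not keep to this. In adipocytes the 2 of over 30000 to 100000 bases were at -0.85 and 2.10, against a median of 0.39. The 1 member of over 100000 bases was at -0.67, below the 1.45 of the other genes.

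**Figure D4:**
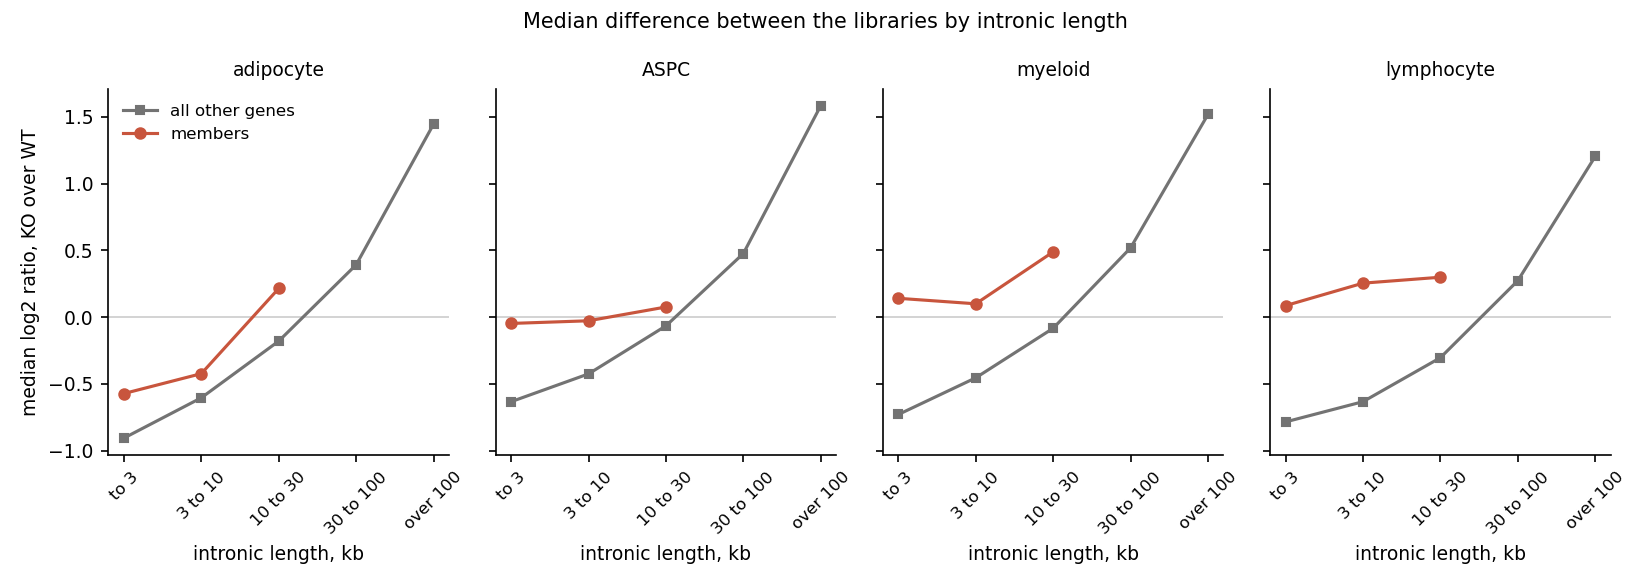
Median log2 ratio of CPM, library labelled KO over labelled WT, by intronic length in kilobases, for members (red, ranges with at least 3 members) and all other genes (grey) with at least 50 UMIs, in 4 classes. The grey lines climb with length in each class and the members lie above them in every range shown.

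Ndufs4, with 98766 intronic bases, was the longest member apart from Cox7b2 (104840 bases and no UMIs) and the Atp5o row ENSMUSG00000022956 (given as 245030 bases). Ndufv2 (20775), Sdhc (20189) and Sdhb (15752) lay in the range of over 10000 to 30000 bases, whereas Cox7c had 958, Atp5b 2882 and Ndufs8 2885 intronic bases. Correction for intronic length moved Ndufs4 in adipocytes from 2.10 to 1.71 on the log2 scale. It moved Ndufv2 from 1.67 to 1.85, Sdhb from 1.24 to 1.42 and Sdhc from 1.06 to 1.24. Cox7c, Atp5b and Ndufs8 came to -0.15, -0.17 and -0.048 under it. Across 75 members in adipocytes, Pearson's r between the log2 ratio and the log10 intronic length was 0.431, given as a description. Whether reads in introns were counted was not given in the sources used here, and the part of intron reads in these differences was not tested.

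The summed members also moved with the share of mitochondrial UMIs of the nucleus, commonly read as a measure of cytoplasm carried along with nuclei. As CPM of the UMIs that were not mitochondrial, adipocytes of the library labelled KO with at most 1% mitochondrial UMIs held 3467 CPM (3423 to 3511), those of over 1% to 2% held 4732 and those of over 2% to 5% held 5660 CPM (5467 to 5858). With the label WT the 3 values were 3972, 4533 and 5010 CPM. Adipocytes labelled WT were thus higher in the lowest range and those labelled KO in the highest. These sums include the Atp5o row ENSMUSG00000116933, which had 0 UMIs labelled WT and made up 8.30% of member UMIs in adipocytes labelled KO. Values without it are not given for these ranges, so whether the order in the highest range rests on it was not tested. Myeloid cells went from 4382 to 7494 CPM in the library labelled KO and from 4571 to 5064 CPM in that labelled WT, where the middle range was highest at 5471 CPM. Ribosomal protein genes moved the same way in adipocytes, from 9404 to 14988 CPM in the library labelled WT and from 3774 to 7276 CPM in that labelled KO. The part of cytoplasmic RNA in the members' levels was not tested.

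**Figure D5:**
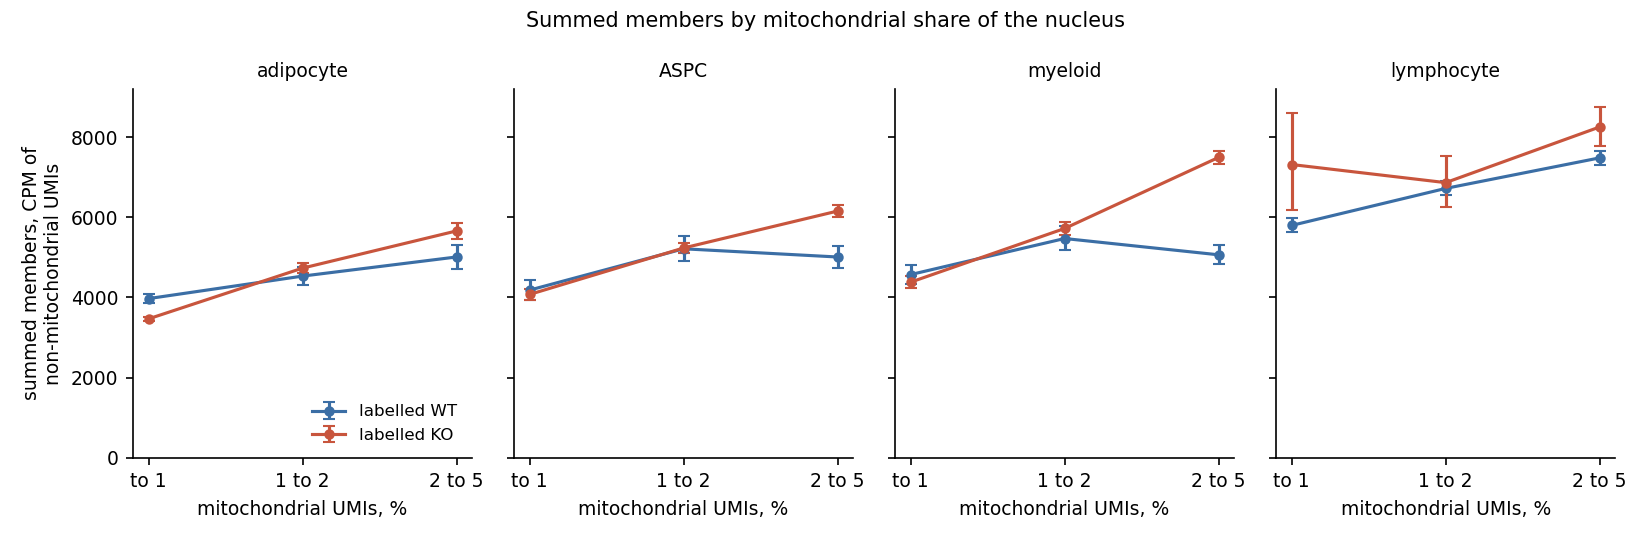
Summed members in CPM of non-mitochondrial UMIs, by the percentage of mitochondrial UMIs of the nucleus, in 4 classes and both libraries, with exact Poisson 95% intervals. In adipocytes the library labelled KO spans 3467 to 5660 CPM and that labelled WT 3972 to 5010 CPM. The sums include the Atp5o row ENSMUSG00000116933. The lowest lymphocyte point labelled KO rests on 6 nuclei.

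Per nucleus, every class was close to full detection. With each nucleus thinned to 1000 UMIs, 98.0% of 408 adipocyte nuclei labelled WT (exact binomial interval 96.2 to 99.1%) and 96.9% of 889 labelled KO (95.5 to 97.9%) had at least 1 member UMI, and 100% of both had one before thinning. A thinned adipocyte nucleus held a mean of 4.52 member UMIs in the library labelled WT and 4.43 in that labelled KO, with variances of 1.55 and 1.56 times the mean. The corresponding means were 4.89 and 5.66 in ASPC and 5.24 and 6.58 in myeloid nuclei. All these means include the Atp5o row ENSMUSG00000116933. Thinning left out 10 and 5 adipocyte nuclei, but 1022 of the 2105 lymphocyte nuclei labelled WT. Among these 3 classes adipocytes had the lowest mean in each library.

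Isoforms known from particular tissues marked other classes. Ndufa4l2, a hypoxia-responsive relative of Ndufa4, had its highest CPM in mural nuclei, the pericytes and smooth muscle of vessels, with 3 UMIs in 10 nuclei labelled WT (212 CPM) and 14 UMIs in 44 nuclei labelled KO (99.9 CPM, 35.1 times the other nuclei, 17.8 to 65.3). Of its 72 UMIs in all, 33 were in ASPC labelled KO (9.94 CPM) and 0 in ASPC labelled WT. Cox4i2, the hypoxia-associated alternative isoform to Cox4i1, had 7 UMIs in mural nuclei labelled KO (49.9 CPM) and 7 in all other nuclei of that library. Cox6a2, the heart and muscle form of Cox6a1, had 15 UMIs in the 52 myocyte nuclei (56.7 CPM) and 28 in all other nuclei labelled KO (1.82 CPM). In adipocytes these 3 genes had between 0 and 13 UMIs per library. Cox6b2, a testis form, had 30 UMIs in all.

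The broadly used forms were instead found in every class. In adipocytes of the libraries labelled WT and KO, Cox4i1 was at 95.2 and 67.2 CPM (0.706 times, 0.597 to 0.837), Cox6a1 at 52.2 and 65.1 CPM, Cox6b1 at 55.3 and 55.7 CPM and Cox7b at 46.6 and 50.4 CPM. Cox7a2 was at 42.5 and 41.9 CPM, and Cox7a2l, whose product joins complexes III and IV in supercomplexes, at 36.4 and 26.3 CPM (0.722 times, 0.551 to 0.957). The 3 genes for the same mature c-ring subunit of ATP synthase were all lower in adipocytes labelled KO by their ratios, at 0.760 for Atp5g1 (interval 0.511 to 1.16), 0.454 for Atp5g2 and 0.545 for Atp5g3. Among the other classes, Atp5g1 led the members enriched in lymphocytes labelled KO (3.55 times all other nuclei, 2.14 to 5.56, from 20 UMIs), and Ndufc2 in endothelial cells labelled WT (3.63 times, 2.53 to 5.07, from 38 UMIs).

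Other genes of the pathway were read in adipocytes from lists. Of 49 assembly factors, which build the complexes without remaining in them, 47 had at least 50 UMIs, 9 were at or above a ratio of 2 (19.1%, against 25.9% of all genes) and 10 at or below 0.5 (21.3%, against 17.6%). Their 3 genes with most UMIs were Ttc19 (1.27 times), Ndufaf4 (267 and 91.4 CPM, 0.342 times) and Timmdc1 (14.8 and 122 CPM, 8.22 times). Of 15 transcriptional regulators all had 50 UMIs, 4 were at or above 2 (26.7%, near the 25.9% of all genes) and 0 at or below 0.5. Nrf1 was at 32.8 and 87.1 CPM (2.66 times, 2.06 to 3.49), Yy1 at 122 and 68.4 CPM (0.561 times, 0.482 to 0.655) and the coactivator Ppargc1b at 72.2 and 110 CPM (1.52 times, 1.27 to 1.82). Of the subunits and electron carriers that the symbol rule leaves out, 9 had 50 UMIs, 1 was at or above 2 (11.1%) and 3 at or below 0.5 (33.3%), beside the same 25.9% and 17.6%. Etfa, the electron transfer flavoprotein alpha subunit, was at 86.5 and 247 CPM (2.85 times). Ndufab1, the acyl carrier protein of complex I, was at 57.3 and 54.2 CPM and Etfdh at 76.8 and 68.7 CPM, both with intervals that held 1.

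Adipocytes with a UMI of the thermogenic genes Ucp1, Cidea or Ppargc1a held 1.09 times (1.03 to 1.14) the members' CPM of those without in the library labelled WT (77 and 341 nuclei). The value was 1.01 times (0.986 to 1.03) in the library labelled KO (277 and 617 nuclei). Nuclei with such a UMI were also deeper, with a median of 4908 UMIs against 3491 labelled WT and 8634 against 7445 labelled KO. The part of depth in these ratios was not tested.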

How the data were processed

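The authors deposited UMI counts per gene and barcode for each library, made with Cell Ranger (6.1.1 per the file headers) against mm10 per the submitters' processing notes. Whether intron reads were counted was not given in the sources used here. Barcodes with at least 500 genes and at most 5% mitochondrial UMIs were kept. Scrublet (scanpy 1.11.5) removed 92 nuclei labelled KO by its automatic threshold and, since that marked 0, the top 4% of scores (146 nuclei) labelled WT. Clusters were made on both libraries together in Seurat 5.3.0 under R 4.3.3 (2000 variable genes less the members, 1999 in all, 20 components, 20 neighbours, resolution 0.5, no integration), and clusters were named from marker lists with a lead of at least 3 markers. Counts were summed per class and library. Levels are CPM with exact Poisson intervals, and ratios have exact conditional binomial intervals. With 1 library per genotype no test was run, and a ratio of at least 2 or at most 0.5 with at least 50 UMIs is called. The interval code was tested on simulated data. Members, lists and motifs were chosen with earlier results of these data known. Named genes are the 2 members with most UMIs per complex, the 4 largest and 4 smallest adipocyte ratios, the isoform sets, and the members most enriched in a class with at least 20 UMIs. Members named outside these (those past a fold in other classes or higher in adipocytes in both libraries) were chosen after their values were seen. Deposited totals were 9376351 UMIs labelled WT and 19655049 labelled KO. Alternatives were TMM scaling (edgeR 4.0.16), other totals, filters, clusterings and member sets. The values of 1 member are not reported singly here, although it is in the sums and counts.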

Additional observations from a re-analysis of the deposited data

Results flagged for a closer look

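The summed members lay on opposite sides of 1 in different classes, with ratios of the library labelled KO over that labelled WT of 0.908 in adipocytes, 0.838 in endothelial cells and 0.725 in mural cells, and of 1.10 in ASPC, 1.21 in myeloid cells and 1.15 in lymphocytes. The difference between the classes was not tested, since there was 1 library per genotype.

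Barcodes left out of the comparisons also held members. Those under 500 genes held 5713 CPM in the library labelled WT (277 barcodes) and 3846 CPM in that labelled KO (198 barcodes). Those with over 5% mitochondrial UMIs held 7594 CPM in the library labelled WT (1074 barcodes) and 14078 CPM in that labelled KO (1858 barcodes). The second of these was above every class of kept nuclei labelled KO. The Atp5o row ENSMUSG00000116933 changed the last value only to 13940 CPM. The 150 unnamed nuclei labelled WT held 4622 CPM.

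The isoforms outside the symbol rule were detected too. Cox7a1 had 17 UMIs over the kept nuclei labelled WT and 55 over those labelled KO. Cox8b had 93 and 298 UMIs.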

How the results depend on the processing

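Values are log2 ratios of the library labelled KO over that labelled WT for the summed members unless named otherwise. As reported they were -0.14 in adipocytes, 0.14 in ASPC, 0.27 in myeloid cells, 0.20 in lymphocytes and -0.25 in endothelial cells, and adipocytes over ASPC and over myeloid cells were -0.18 and -0.25 in the library labelled WT and -0.46 and -0.66 in that labelled KO. With TMM scaling, which raised the median of all genes in adipocytes from -0.0067 to 0.29, the 5 classes in that order were 0.16, 0.24, 0.39, -0.019 and -0.074, the adipocyte ratios 0.012, 0.18, -0.21 and -0.26, the member median in adipocytes -0.043 and the members at or below 0.5 were 0. Complexes I and III in adipocytes turned from -0.15 and -0.29 to 0.14 and 0.0024 under it. With totals without mitochondrial genes and Malat1, which lowered the median of all genes to -0.26, the classes were -0.39, -0.13, -0.0025, 0.10 and -0.39, the adipocyte ratios -0.069, -0.038, -0.33 and -0.43, the member median -0.59, and 11 members were at or below 0.5 and 3 at or above 2. Corrected for intronic length the classes were 0.27, 0.43, 0.54, 0.77 and 0.57 and the member median 0.33. This correction was not run between classes. Thinned to 1000 UMIs they were -0.029, 0.21, 0.33, 0.38 and 0.31, with a median of -0.093 and adipocyte ratios to ASPC of -0.11 labelled WT and -0.35 labelled KO and to myeloid cells of -0.57 labelled KO. With nuclei of at least 1000 genes they were -0.077, 0.25, 0.44, 0.077 and -0.13, and adipocytes over myeloid cells -0.078 and -0.60. With at most 1% mitochondrial UMIs they were -0.20, -0.33, -0.030, 0.32 and -0.079, the adipocyte ratios -0.34, -0.17, -0.22 and -0.34, and 6 members were at or below 0.5. At a resolution of 1.0 lymphocytes were at 0.12. With genes of at least 1 UMI, 5 members were at or below 0.5 and the member median less that of all genes turned from -0.33 to 0.22. Among the alternatives added after seeing the data, leaving out the Atp5o row ENSMUSG00000116933 (in adipocytes and myeloid cells also the member with most UMIs, whose removal was set down earlier and gave the same values) gave -0.26 in adipocytes, 0.071 in ASPC, 0.13 in myeloid cells and -0.52 for adipocytes over ASPC labelled KO. Totals without genes seen in 1 library gave -0.26, 0.077, 0.14 and -0.52. The cause of these changes was not tested beyond what each alternative leaves out. In every alternative run, adipocytes of the library labelled KO stayed below its ASPC and myeloid cells. The other 91 values stayed within their interval, within 1.5 times their count or within 0.1 of the median. For complexes and single genes in adipocytes, 52 values stayed, 29 moved without turning and 2 turned (complexes I and III, above). No paired analysis was possible because each genotype had 1 library. Depth limited endothelial and mural nuclei, where 19 and 0 of the 82 members reached 50 UMIs over both libraries.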
